A study of Mus musculus with 26 samples.

Results

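The NFI factors and the COUP-TF receptors are DNA-binding transcription factor families, and their 7 mouse genes *Nfia*, *Nfib*, *Nfic*, *Nfix*, *Nr2f1*, *Nr2f2* and *Nr2f6* were picked by name from the 52454 gene symbols of the deposited expression table. All 7 were found, each with 1 row, and all reached 1 FPKM (a level corrected for transcript length and library depth) in every library. The study asked where the DNA methyltransferases DNMT3A and DNMT3B act in development and what the loss of either does to Polycomb target genes. RNA-seq was analysed here in 10 libraries, 1 per condition. The first pair came from 2i-MEFs, embryonic fibroblasts of F1 (129X1/SvJ and MSM/Ms) female origin. They were grown from chimeric embryos at E14.5 whose GFP-marked cells descended from ES cells kept in 2i/L medium, with *Dnmt3a* or *Dnmt3b* removed by CRISPR/Cas9, and host cells were taken out by G418 and sorting. The next 4 libraries were MEFs at passage 1 from C57BL6 male embryos at E14.5, labelled *Dnmt3a* WT or *Dnmt3a* KO (tm1Enl allele), each with DMSO or with 10 µM GSK126 for 2 days. GSK126 inhibits EZH2, the enzyme of Polycomb repressive complex 2 that methylates histone H3 at lysine 27. The last 4 libraries were heart and liver of C57BL6 male embryos at E14.5 labelled *Dnmt3a* WT or KO, and the labels give the same embryo number to heart and liver of a genotype. No WT 2i-MEF library was used here, so the KO 2i-MEFs were compared with each other.

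NFI proteins bind DNA as dimers at a palindrome with TTGGC on one side and GCCAA on the other. They are known for switching progenitors towards later fates: *Nfia* and *Nfib* in the formation of glia, *Nfib* also in lung maturation, *Nfix* in fetal muscle and *Nfic* in tooth roots. COUP-TFs are orphan nuclear receptors that bind repeats of AGGTCA and often act as repressors. *Nr2f1* (COUP-TFI) patterns the cortex and neural crest, *Nr2f2* (COUP-TFII) sets vein and atrial identity and is found in mesenchyme of many organs, and *Nr2f6* (EAR2) is best known from blood cells.

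The labels held in part. The *Dnmt3a* level was 4.21 FPKM in 2i-MEFs lacking *Dnmt3a* and 23.9 FPKM in those lacking *Dnmt3b*, and 12.7 against 53.5 FPKM in KO and WT liver. It went against the label in the other KO libraries, with 85.7 and 84.5 FPKM in MEFs labelled KO against 26.1 and 19.3 FPKM in WT (DMSO and GSK126 in this order), and 125 FPKM in heart labelled KO against 55.0 FPKM in WT. A value per gene does not show which exons its reads come from. Those 3 libraries are called the libraries labelled *Dnmt3a* KO. *Dnmt3b* was at 0.817 FPKM in *Dnmt3b* KO and 1.81 FPKM in *Dnmt3a* KO 2i-MEFs. At levels this low, the *Dnmt3b* KO label could hardly be checked. Depth recovered from the table was lowest for *Dnmt3b* KO 2i-MEFs, with 9154200 reads, and highest for WT liver, with 26154000. All 10 fibroblast markers were at 1 FPKM or more in the 6 fibroblast libraries, with summed FPKM of 16989 and 18030 in 2i-MEFs and from 6213 to 12048 in MEFs, and all 8 cardiomyocyte markers and all 7 hepatocyte markers were so in heart and liver, respectively.

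All 7 genes are annotated on mm10, and the spans in the table equal those of GENCODE M21. *Nfia* is on chr4:97772734-98118874 on the plus strand, and *Nfib* on chr4:82290173-82705750 on the minus strand of the same chromosome. *Nfic* is on chr10:81396186-81455635 and *Nfix* on chr8:84699876-84800344, both on the minus strand. *Nr2f1* is on chr13:78188973-78199757, *Nr2f2* on chr7:70351944-70366735 and *Nr2f6* on chr8:71374123-71381960, all on the minus strand. The NFI genes span from 59.5 to 416 kb, and the COUP-TF genes from 7.84 to 14.8 kb.

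Since DNMT3A and DNMT3B methylate CpG dinucleotides, the promoter windows of the most abundant members are shown with every CpG in capitals. The windows come from RefSeq on GRCm38.p6 (the build of mm10) and hold 250 bases before a start site and 50 after it, written 5′ to 3′ on the strand of the gene. RefSeq gave 10 such windows for 6 of the members. *Nr2f6* has 53 CpGs in its window, chr8:71381903-71382202 on the minus strand, and only 0.451% of all 32851 promoters have as many. *Nr2f2* has 2 CpGs in its window, chr7:70366697-70366996 on the minus strand, against a median of 7 over all promoters. The *Nfic* window, chr10:81427124-81427423 on the minus strand, has 24 CpGs and starts a transcript inside the annotated gene, with 64 of its bases in exons. The *Nfix* window shown, chr8:84780033-84780332 on the minus strand, has 13 CpGs and lies in an intron of the annotated gene.
Nr2f6: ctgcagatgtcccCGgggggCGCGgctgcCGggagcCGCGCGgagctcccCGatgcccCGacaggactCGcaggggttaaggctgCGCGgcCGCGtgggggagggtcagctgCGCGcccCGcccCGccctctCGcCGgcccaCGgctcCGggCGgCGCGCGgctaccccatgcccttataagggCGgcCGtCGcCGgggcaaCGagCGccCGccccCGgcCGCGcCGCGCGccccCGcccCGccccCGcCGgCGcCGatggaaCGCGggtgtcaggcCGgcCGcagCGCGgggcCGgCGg
Nr2f2: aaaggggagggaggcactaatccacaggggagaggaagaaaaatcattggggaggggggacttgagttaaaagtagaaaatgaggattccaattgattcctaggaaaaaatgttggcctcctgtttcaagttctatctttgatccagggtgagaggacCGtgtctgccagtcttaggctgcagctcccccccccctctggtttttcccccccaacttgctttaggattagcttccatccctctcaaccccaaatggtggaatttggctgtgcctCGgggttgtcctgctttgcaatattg
Nfic: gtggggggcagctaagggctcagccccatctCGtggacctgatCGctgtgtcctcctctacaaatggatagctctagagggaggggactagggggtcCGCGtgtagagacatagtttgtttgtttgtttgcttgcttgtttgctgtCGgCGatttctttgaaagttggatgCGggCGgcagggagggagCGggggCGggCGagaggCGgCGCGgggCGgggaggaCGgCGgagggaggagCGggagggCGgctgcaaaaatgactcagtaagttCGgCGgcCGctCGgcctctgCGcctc
Nfix: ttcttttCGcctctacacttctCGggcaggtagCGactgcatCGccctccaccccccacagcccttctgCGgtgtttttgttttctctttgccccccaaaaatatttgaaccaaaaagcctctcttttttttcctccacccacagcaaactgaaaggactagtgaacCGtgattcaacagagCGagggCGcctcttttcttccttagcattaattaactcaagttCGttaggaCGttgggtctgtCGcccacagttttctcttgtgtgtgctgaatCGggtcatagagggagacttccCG

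The other windows of *Nfix* hold 2, 9 and 4 CpGs, those of *Nr2f1* 4 and 23, and that of *Nfia* 2. The *Nfia* window lies 190791 bases upstream of the start of the annotated gene, outside its span. The binding motifs of both families were searched on both strands. The full NFI palindrome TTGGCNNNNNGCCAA was in none of the 10 windows and in 0.0365% of all promoters, and the repeat AGGTCANAGGTCA was in none of the 10 and in 0.0396% of all. The arm TTGGC, which is part of the palindrome, was in 4 windows (3 of *Nfix* and that of *Nr2f2*), and 46.7% of all promoters hold it. The arm AGGTCA, which is part of the repeat, was in 2 *Nfix* windows and in 16.3% of all promoters.

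**Figure D1:**
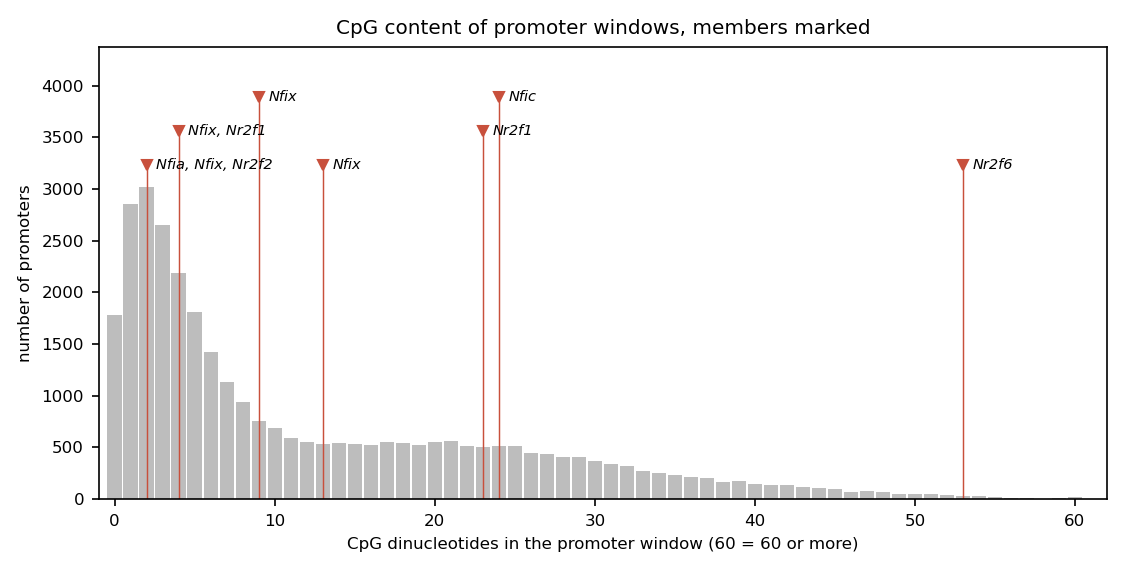
CpG dinucleotides per RefSeq promoter window of 300 bases (x axis) against the number of promoters with that count (grey bars, y axis), with the 10 windows of 6 members marked by red lines. *Nr2f6* stands at 53 CpGs near the right end, while *Nfia* (a window 190791 bases upstream of the annotated gene), *Nr2f2* and 1 window of *Nfix* stand at 2 CpGs, below the median of 7.

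Across the libraries, all NFI factors were lowest in liver, and *Nfia* and *Nfix* were higher in every fibroblast library than in heart, while *Nfib* and *Nfic* in heart overlapped with fibroblasts. *Nr2f6* varied least among the members (1.64-fold from the lowest to the highest library), and *Nr2f1* and *Nr2f2* each had a pattern of their own. In all 6 fibroblast libraries the order of levels began with *Nfix*, *Nfic* and *Nr2f6*. In both heart libraries it began with *Nr2f6*, *Nfic* and *Nfix*, and in both liver libraries with *Nr2f6*, *Nr2f2* and *Nfic*. FPKM are per length, so they can be compared between genes.

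*Nfix* was at 117 FPKM in *Dnmt3a* KO and 68.4 in *Dnmt3b* KO 2i-MEFs, at 140 and 107 in WT MEFs with DMSO and GSK126, and at 130 and 118 in MEFs labelled *Dnmt3a* KO with DMSO and GSK126. In tissues it was at 13.2 FPKM in WT heart, 13.7 in heart labelled KO, 7.58 in WT liver and 5.27 in KO liver. Every fibroblast library was above every tissue library, and the lowest fibroblast level was 5.0-fold above the highest tissue level (counting interval 4.32 to 5.77). *Nfic* was at 80.6 and 51.7 FPKM in *Dnmt3a* KO and *Dnmt3b* KO 2i-MEFs, at 84.2 and 78.0 in WT MEFs, and at 78.0 and 69.2 in MEFs labelled KO (DMSO, then GSK126). In WT heart and heart labelled KO it was at 52.2 and 43.9 FPKM, and in WT and KO liver at 11.9 and 7.25 FPKM. WT heart was thus as high as *Dnmt3b* KO 2i-MEFs, and the liver libraries stood apart.

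*Nfia* was at 15.2 and 10.7 FPKM in *Dnmt3a* KO and *Dnmt3b* KO 2i-MEFs, 18.6 and 13.6 FPKM in WT MEFs, and 13.1 and 10.9 FPKM in MEFs labelled KO. It was at 5.28 FPKM in WT heart, 8.36 in heart labelled KO, 1.56 in WT liver and 1.40 in KO liver. All fibroblast libraries were above all tissue libraries, although *Dnmt3b* KO 2i-MEFs and heart labelled KO, which are neighbours in this order, did not differ beyond counting error (1.28-fold, interval 0.893 to 1.79). *Nfib* was at 13 and 12.6 FPKM in 2i-MEFs (*Dnmt3a* KO, *Dnmt3b* KO), 14.2 and 13.8 FPKM in WT MEFs, 11.2 and 11.7 FPKM in MEFs labelled KO and 10.6 and 11.4 FPKM in WT heart and heart labelled KO. Its liver values were 2.31 FPKM in WT and 2.24 FPKM in KO. For *Nfib*, then, heart overlapped with fibroblasts, and of the 9 pairs of neighbours in the order of libraries only WT heart and WT liver differed beyond counting error.

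*Nr2f6* stayed between 50.8 and 55.1 FPKM in the 6 fibroblast libraries. It was at 63.6 FPKM in WT heart, 45.2 in heart labelled KO, 43.9 in WT liver and 38.7 in KO liver, so that the highest library was 1.64-fold above the lowest. *Nr2f2* was highest in 2i-MEFs, at 31.5 FPKM in *Dnmt3a* KO and 29.1 in *Dnmt3b* KO, and lower in MEFs, at 15.2 and 9.45 in WT and 13.5 and 8.30 in MEFs labelled KO (DMSO, then GSK126). It was at 6.36 and 5.02 FPKM in WT heart and heart labelled KO, and at 12.8 and 7.30 FPKM in WT and KO liver. WT liver therefore lay among the MEFs, and *Nr2f2* was the only member with a lower level in both hearts than in both livers. *Nr2f1* was at 21.1 and 17.1 FPKM in *Dnmt3a* KO and *Dnmt3b* KO 2i-MEFs, 12.5 and 10.0 in WT MEFs, and 4.23 and 7.17 in MEFs labelled KO. It was at 11.4 FPKM in WT heart, 4.74 in heart labelled KO, 1.31 in WT liver and 2.1 in KO liver. WT heart thus lay between the WT MEF libraries, while heart labelled KO lay next to the MEFs labelled KO with DMSO. When the 10 libraries were ordered by level, 7 of the 9 neighbouring pairs differed beyond counting error for *Nfix*, 4 for *Nfic* and *Nr2f1*, and 2 for *Nfia*, *Nr2f2* and *Nr2f6*.

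**Figure D2:**
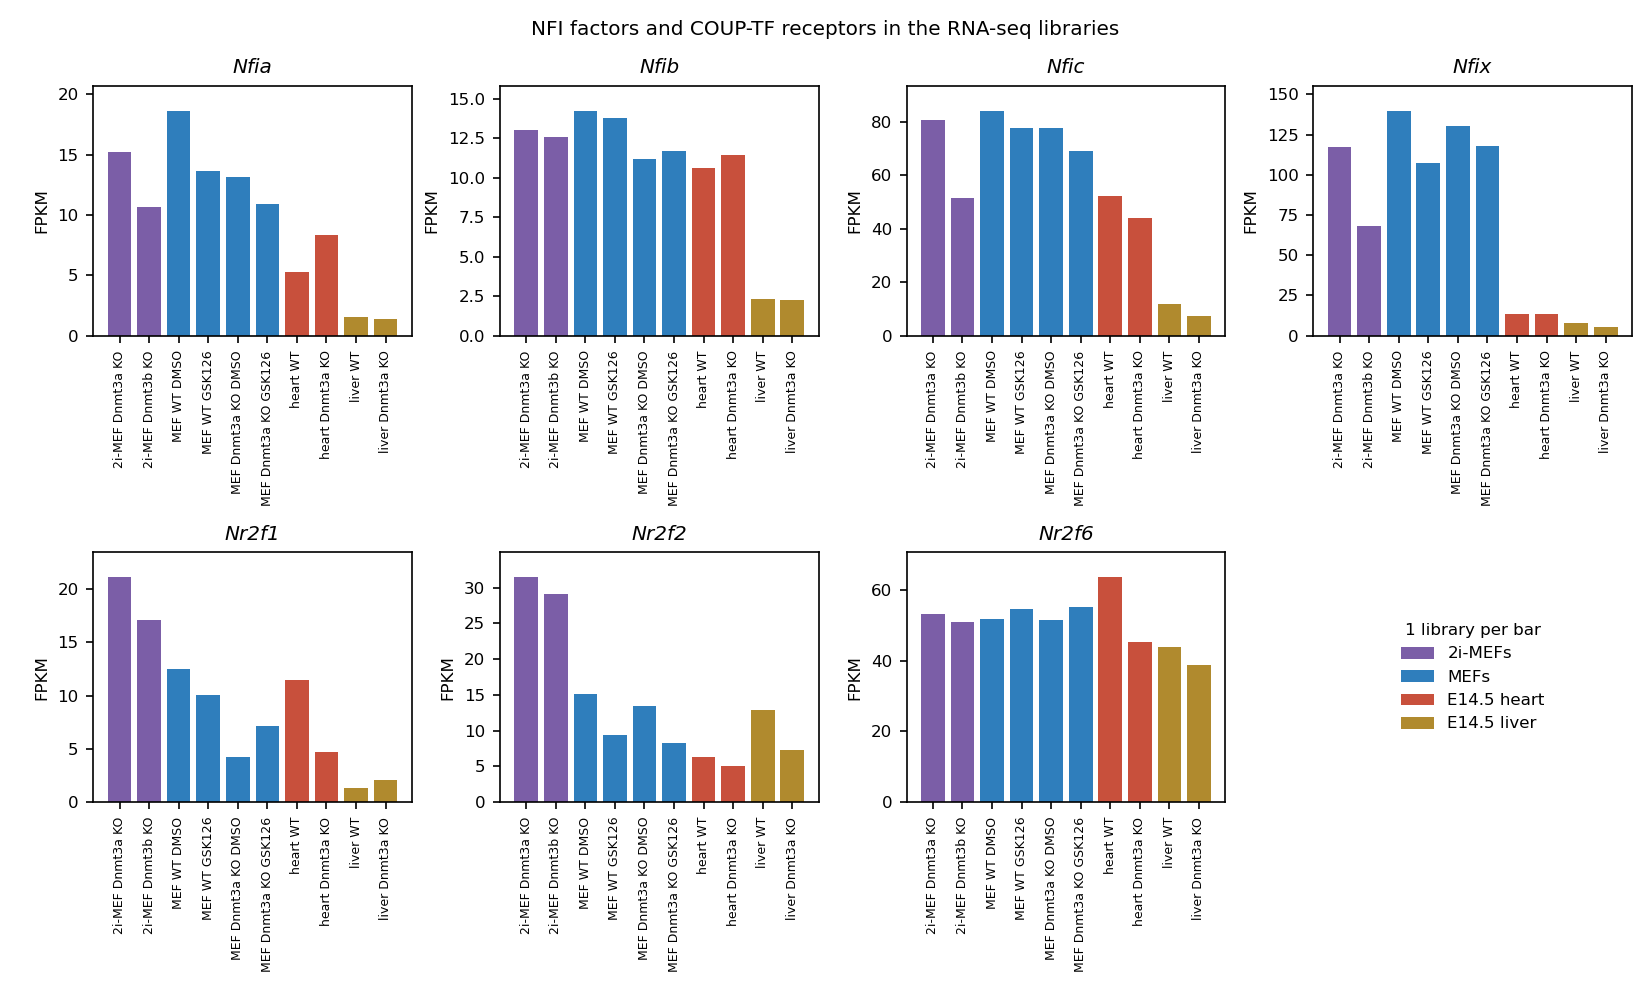
FPKM of each member (linear y axes from 0) in the 10 RNA-seq libraries, 1 bar per library and 1 panel per gene, with 2i-MEFs in purple, MEFs in blue, heart in red and liver in ochre. *Nfix* falls from 68.4 to 140 FPKM in fibroblasts to at most 13.7 FPKM in tissues, *Nr2f6* stays between 38.7 and 63.6 FPKM, and *Nr2f2* is highest in 2i-MEFs.

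The make-up of the NFI family differed between cell types. *Nfix* gave between 47.7% and 56.3% of the summed NFI FPKM in fibroblasts and *Nfic* between 32.8% and 36.6%, so these genes held most of the family's RNA. In heart, *Nfic* gave 56.7% and 64.2% (heart labelled KO and WT) and *Nfix* 17.7% and 16.2%. In liver, *Nfic* gave 44.8% and 50.9% (KO and WT) and *Nfix* 32.6% and 32.5%. *Nfia* gave at most 10.8% and *Nfib* at most 14.8% of the sum in any library, both in heart labelled KO. The summed NFI FPKM was between 143 and 257 in fibroblasts, 81.3 and 77.4 in WT heart and heart labelled KO, and 23.3 and 16.2 in WT and KO liver. Of the summed COUP-TF FPKM, *Nr2f6* gave 50.3% and 52.4% in 2i-MEFs, between 65.1% and 78.1% in MEFs, and at least 75.6% in heart and liver.

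**Figure D3:**
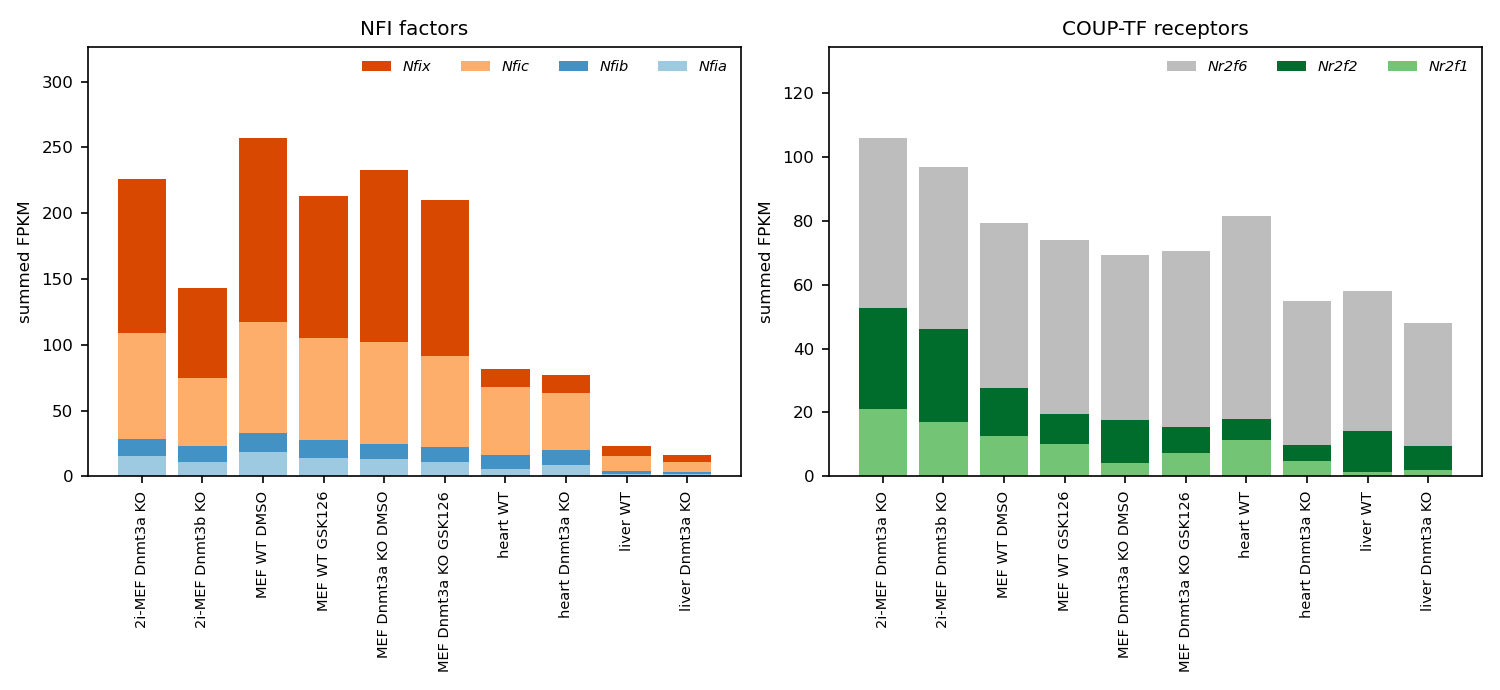
Summed FPKM (linear y axes from 0) of the NFI factors (left) and the COUP-TF receptors (right) in the 10 libraries, 1 stacked bar per library and 1 colour per gene. The NFI bars are 143 to 257 FPKM high in fibroblasts with *Nfix* as the largest part, and 16.2 to 81.3 FPKM high in tissues with *Nfic* as the largest part.

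Set against all genes, the fibroblast pattern was common. *Nfia* and *Nfix* were the 2 members for which all 6 fibroblast libraries lay above all 4 tissue libraries, which held for 17.8% of the 16896 genes at 1 FPKM or more in any library, and no member lay below (15.4% of all genes did). Without the 2i-MEFs, *Nfic* joined them (3 members, 23.2% of all genes), and without the 3 libraries labelled *Dnmt3a* KO, *Nfib* joined them instead (3 members, 21.3%). *Nr2f1* and *Nr2f2* were the 2 members higher in both 2i-MEF libraries than in all 4 MEF libraries, as were 24.1% of all genes, and no member was lower in both (21% of all genes were). Both remained so without the MEFs labelled *Dnmt3a* KO (35.3% of all genes), a setting chosen after seeing the data, in which *Nfib* was the 1 member lower in both 2i-MEF libraries, as were 28.5% of all genes. Mean FPKM in 2i-MEFs was 2.25-fold that of MEFs for *Nr2f1* and 2.61-fold for *Nr2f2*. The 2i-MEFs and the MEFs also differ in strain, sex, ES cell origin, sorting, *Dnmt3a* or *Dnmt3b* genotype (no WT among the 2i-MEFs) and GSK126 treatment (2 of the 4 MEF libraries), which cannot be told apart here, and the summed fibroblast markers were higher in 2i-MEFs (16989 and 18030 FPKM) than in any MEF library (at most 12048 FPKM). The part of these markers in the result was not tested.

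In WT, all 7 members differed between heart and liver beyond counting error, as did 81.1% of the 12841 tested genes that have a coding transcript. Among them, 4 were at least 2-fold higher in heart than in liver on the scale of log2(FPKM + 1), *Nfia*, *Nfib*, *Nfic* and *Nr2f1*, while 41.6% of 14572 genes were at least 2-fold apart in either direction. In the KO pair, in which the heart is labelled *Dnmt3a* KO, they were *Nfia*, *Nfib*, *Nfic* and *Nfix* (4 of 7, against 43.7% of 14567 genes). In both pairs 6 members were higher in heart. Heart was above liver without overlap for these 6, as for 40.1% of all genes, and below it for *Nr2f2* alone, as for 42.6%. For *Nr2f6*, heart labelled KO and WT liver did not differ beyond counting error (1.03-fold, 0.908 to 1.17). Nor did KO liver and WT heart for *Nr2f2* (1.15-fold, 0.808 to 1.66). The ratio of *Nr2f1* was the largest in WT, at 8.71-fold (95% counting interval 5.30 to 15.3), but it was 2.26-fold (1.35 to 3.83) in the KO pair. *Nfic* was 4.40-fold higher in WT heart (3.56 to 5.45) and 6.06-fold in the KO pair (4.63 to 7.97). *Nr2f2* was 0.496-fold in WT heart relative to liver (0.355 to 0.682), and 0.687-fold in the KO pair, where the interval included 1 (0.445 to 1.03). The other 6 were beyond counting error in the KO pair, as were 80.3% of 12808 genes. In bulk tissue, fewer cells of a type and less RNA per cell cannot be told apart, and summed erythroid markers were at 119587 and 161479 FPKM in WT and KO liver against 35234 and 24295 in the hearts. Fibroblast markers summed to 1391 and 1400 FPKM in WT heart and heart labelled KO and to 519 and 278 FPKM in WT and KO liver. The part of these cells in the ratios was not tested.

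In 2i-MEFs, all 7 members were higher in *Dnmt3a* KO than in *Dnmt3b* KO, but none by 2-fold (0 of 7, against 9.01% of 13605 genes). Of all tested genes, 46.8% had a log2 ratio below 0. The median log2 ratio of the members was 0.29, against 0.03 over all genes tested. The NFI genes *Nfix* (1.71-fold, 95% counting interval 1.57 to 1.87), *Nfic* (1.56-fold, 1.30 to 1.88) and *Nfia* (1.42-fold, 1.03 to 2.00) differed beyond counting error (3 of 7, against 36.5% of 11889 genes). *Nfib* did not (1.03-fold, 0.717 to 1.5), nor did *Nr2f1* (1.24-fold, 0.929 to 1.66), *Nr2f2* (1.08-fold, 0.846 to 1.39) or *Nr2f6* (1.05-fold, 0.891 to 1.24). Summed fibroblast markers came to 18030 FPKM (*Dnmt3a* KO) and 16989 FPKM (*Dnmt3b* KO), and the markers of heart muscle, endothelium and blood summed to at most 10.6 FPKM per list. In the same order, skeletal muscle markers summed to 10.1 and 3.90 FPKM, most of it *Tnnt3* (8.42 and 2.41 FPKM). *Myod1*, *Myog* and *Myh3* were below 1 FPKM in both and higher in *Dnmt3b* KO. Epicardial and mesothelial markers summed to 17.5 and 25.4 FPKM, of which *Upk3b* alone was higher in *Dnmt3a* KO (2.66 and 1.54 FPKM). The part of these markers in the result was not tested. The intervals, here and for the other comparisons, cover counting error only. They use the reads that a value stands for on the shortest coding transcript, the fewest over the coding transcripts. Noncoding transcripts were left out. As each condition is 1 library, no difference could be set against the spread between replicates, and p-values are not given.

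**Figure D4:**
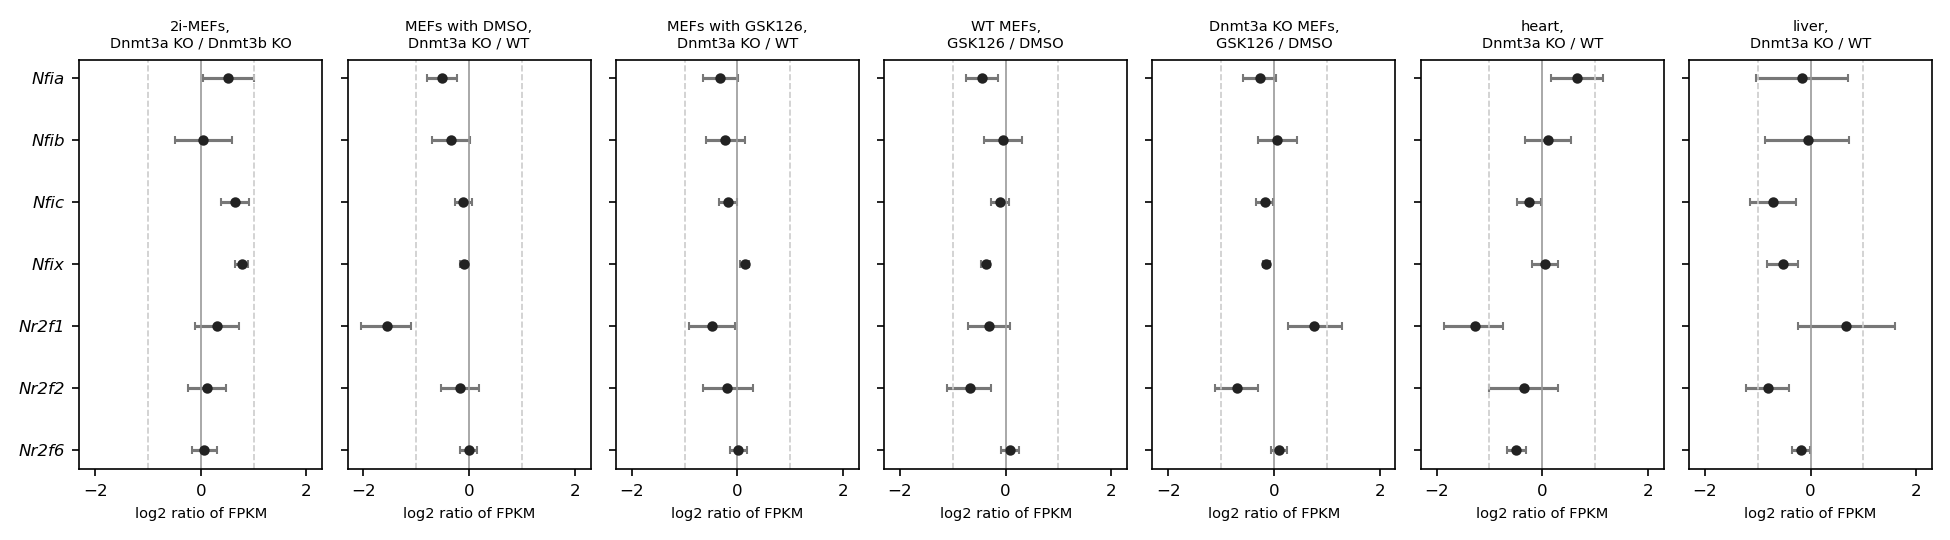
Log2 ratio of FPKM (x axes) of each member (rows) in the 7 comparisons of genotypes or treatments, 1 panel each. Points are the ratios of 1 library to 1 library, bars are 95% counting intervals, the solid line marks equal levels and the dashed lines a 2-fold difference, and only *Nr2f1* in MEFs with DMSO and in heart lies beyond a dashed line.

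In MEFs with DMSO, all 7 members were lower in the library labelled *Dnmt3a* KO than in WT, where 45.8% of all tested genes were lower, and 1 of them at least 2-fold, against 6.26% of 13695 genes in either direction. This was *Nr2f1*, whose level of 4.23 FPKM against 12.5 FPKM in WT is 0.339-fold (95% counting interval 0.243 to 0.469). It rests on 57 and 118 reads if the shortest coding transcript is assumed. *Nfia* was 0.705-fold (0.579 to 0.858) and *Nfix* 0.931-fold (0.888 to 0.977) of WT, and the intervals of the other 4 members included 1, so that 3 of 7 were beyond counting error, against 49.8% of 12107 genes. Centred on the median gene, that of *Nfib* lay below 1 as well. The median log2 ratio of the members was -0.15, against 0.04 over all genes tested. In MEFs with GSK126, no member was 2-fold apart (0 of 7, against 5.83% of 13581 genes), and *Nr2f1* was at 7.17 FPKM in the library labelled KO and 10.0 FPKM in WT (0.716-fold, 0.529 to 0.972). *Nfix* was 1.10-fold higher there (1.04 to 1.16), and *Nfic* was 0.887-fold of WT with an upper bound just under 1, so that these 3 of 7 were beyond counting error, against 41.9% of 12097 genes. The median log2 ratio of the members was -0.17, against 0.01 over all genes tested. The fibroblast markers summed to 9291 FPKM in the library labelled KO and 12048 in WT with DMSO, and to 6213 and 9046 with GSK126. Epicardial and mesothelial markers summed to 92.6 and 50.2 FPKM with DMSO and to 222 and 60.2 with GSK126, in the same order. Of these 5 markers, 2 were at least 2-fold higher in the library labelled KO with DMSO and 3 with GSK126. *Tbx18* was at least 2-fold lower in both settings (1.72 against 4.59 FPKM with DMSO, 1.49 against 4.39 with GSK126). In the same order, skeletal muscle markers summed to 19.2 and 6.87 FPKM with DMSO and to 12.9 and 8.03 with GSK126, and cardiomyocyte markers to 8.42 and 2.48 FPKM and to 9.02 and 10.7. Their part in the result was not tested.

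With GSK126, *Nr2f2* was lower in both genotypes, whereas *Nr2f1* was lower in WT and higher in MEFs labelled *Dnmt3a* KO. No member was 2-fold apart in WT MEFs (0 of 7, against 3.76% of 13490 genes) or in MEFs labelled *Dnmt3a* KO (0 of 7, against 5.26% of 13654 genes). *Nr2f2* was at 15.2 FPKM with DMSO and 9.45 with GSK126 in WT (0.623-fold, 95% counting interval 0.461 to 0.828), and at 13.5 and 8.30 FPKM in MEFs labelled KO (0.614-fold, 0.460 to 0.812). *Nr2f1* was at 12.5 and 10.0 FPKM in WT (0.802-fold, 0.610 to 1.06) and at 4.23 and 7.17 FPKM in MEFs labelled KO (1.69-fold, 1.20 to 2.43). The interval in WT included 1, and the difference between the genotypes was not tested. *Nfix* was 0.768-fold in WT (0.728 to 0.810) and 0.906-fold in MEFs labelled KO (0.864 to 0.95), and *Nfia* 0.731-fold in WT (0.594 to 0.903) and 0.828-fold in MEFs labelled KO (0.667 to 1.03). *Nfic* was 0.925-fold in WT (0.823 to 1.04) and 0.887-fold in MEFs labelled KO (0.794 to 0.992), where the interval included 1 after centring on the median gene. *Nr2f6* and *Nfib* stayed within counting error in both. The members beyond counting error were thus 3 of 7 in WT, against 35.8% of 12007 genes, and 4 of 7 in MEFs labelled KO, against 49.9% of 12074 genes. *Ezh2*, which encodes the enzyme inhibited, was at 18.8 FPKM with DMSO and 11.3 with GSK126 in WT and at 17.3 and 18.7 FPKM in MEFs labelled KO. The summed fibroblast markers, most of which is collagen RNA, were lower with GSK126 in WT (9046 against 12048 FPKM) and in MEFs labelled KO (6213 against 9291 FPKM), with a median log2 ratio over the 10 markers of -0.09 and -0.32, while *Thy1* was higher in both (768 against 613 and 517 against 441 FPKM). Epicardial and mesothelial markers summed to 222 FPKM with GSK126 and 92.6 with DMSO in MEFs labelled KO, and to 60.2 and 50.2 FPKM in WT. In MEFs labelled KO, most of the sum was *Msln* (124 with GSK126 against 42.3 FPKM with DMSO) and *Upk3b* (88.0 against 40.5 FPKM). *Wt1* (4.56 against 5.42 FPKM) and *Tbx18* (1.49 against 1.72 FPKM) were lower there with GSK126. Cardiomyocyte markers summed to 9.02 and 8.42 FPKM in MEFs labelled KO and to 10.7 and 2.48 FPKM in WT. Most of this was *Tnnt2* (6.18 and 6.42 FPKM, then 6.76 and 1.49). The part of these markers in the result was not tested.

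In heart, the library labelled *Dnmt3a* KO again differed from WT past 2-fold in 1 member (4.04% of 13828 genes did so). This was *Nr2f1*, whose level was 4.74 FPKM against 11.4 FPKM in WT. The ratio was 0.415-fold (95% counting interval 0.276 to 0.596), on 38 and 114 reads if the shortest coding transcript is assumed. *Nr2f6* was 0.711-fold (0.627 to 0.806) and *Nfic* 0.841-fold (0.716 to 0.990) of WT. *Nfia* was the only member above WT beyond counting error, 1.58-fold (1.12 to 2.23), and *Nfix* was 1.04-fold (0.878 to 1.23). In all, 4 of 7 members were beyond counting error, against 29% of 12243 genes. The WT heart library held more RNA of atrial markers (11162 against 9299 FPKM summed) and of erythroid markers (35234 against 24295 FPKM), while endothelial markers summed to 292 and 286 FPKM and ventricular markers to 25736 and 25583 FPKM. Hepatocyte markers summed to 67.0 FPKM in WT heart and 67.3 FPKM in heart labelled KO. Of 6 expressed hepatocyte markers, 4 passed 2-fold with the lower level in heart labelled KO (median log2 ratio -1.38), among them *Alb* (3.04 against 12.7 FPKM), but *Trf*, which encodes transferrin and was the most abundant, was at 58.5 FPKM there and 30.1 FPKM in WT. Their part in the result was not tested.

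In liver, no member was 2-fold apart (0 of 7, against 3.68% of 13279 genes), and 4 were lower in *Dnmt3a* KO beyond counting error. Of the 11809 genes with a coding transcript, 46% were beyond counting error, and 30.6% were lower. Of all tested genes, 61.7% had a log2 ratio below 0. *Nr2f2* was 0.570-fold (95% counting interval 0.431 to 0.752), *Nfic* 0.611-fold (0.450 to 0.829), *Nfix* 0.695-fold (0.567 to 0.852) and *Nr2f6* 0.883-fold (0.788 to 0.991) of WT. Centred on the median gene, the interval of *Nr2f6* included 1, which leaves 3 members. *Nr2f1* was at 2.1 FPKM in KO and 1.31 FPKM in WT, with an interval that included 1 (1.60-fold, 0.846 to 3.04). *Nfia* and *Nfib* had wide intervals that included 1 (0.491 to 1.64 and 0.547 to 1.65). These assume the shortest coding transcript and so fewer reads than a longer one. The median log2 ratio over all genes tested was -0.08 in liver, and that of the members was -0.18. Fibroblast markers summed to 278 FPKM in KO and 519 in WT, hepatocyte markers to 14779 and 24377 FPKM, cardiomyocyte markers to 11.5 and 86.2 FPKM, atrial markers to 12.0 and 30.2 FPKM and skeletal muscle markers to 1.86 and 29.8 FPKM. Erythroid markers summed to 161479 FPKM in KO and 119587 FPKM in WT, most of which is globin RNA, whereas their median was 2079 FPKM in KO and 2415 FPKM in WT, and the erythroid factors *Klf1* (469 and 480 FPKM) and *Gata1* (158 and 162 FPKM) were close. Endothelial markers summed to 61.1 and 64.4 FPKM. Their part in the result was not tested.

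Levels of pairs of members were compared across the libraries. Over the 10 libraries, Pearson's r of log2(FPKM + 1) was 0.97 for *Nfib* and *Nfic*, 0.96 for *Nfia* and *Nfic* and 0.95 for *Nfia* and *Nfib*, and the lowest r among the NFI pairs was 0.79, for *Nfib* and *Nfix*. These values are a description, and libraries of the same cell type are not independent points. Within the 6 fibroblast libraries, *Nfic* and *Nfix* still had r = 0.93, whereas *Nfib* and *Nfix* had r = 0.04. Between the COUP-TF genes, r over the 10 libraries was 0.52 for *Nr2f1* and *Nr2f2*, 0.70 for *Nr2f1* and *Nr2f6* and 0.11 for *Nr2f2* and *Nr2f6*, and within fibroblasts it was 0.74, -0.12 and -0.60, respectively. Pairs across the families reached r = 0.82 (*Nfib* and *Nr2f1*), above the lowest NFI pair.

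Likeness by this r was ranked among 11687 genes at 5 FPKM or more in 1 library, without symbols of Gm plus digits or ending in Rik. Of these, the genes most like *Nfix* were *Ogn* (0.996), *Efemp2* and *Mmp16* (both 0.995). *Ogn* and *Efemp2* encode extracellular matrix proteins and *Mmp16* a membrane-bound metalloproteinase. *Ogn* was between 113 and 226 FPKM in fibroblasts, 5.39 and 5.40 in heart and at most 0.967 in liver. Most like *Nfia* were *Olfml3* (0.993), *Pcdhga5* and *Sh3pxd2b* (both 0.984), most like *Nfib* were *Ptgfrn*, *Selenom* (both 0.994) and *Fzd2* (0.993), and most like *Nfic* were *Ankrd13b*, *Fam69b* (both 0.995) and *Phldb1* (0.994). The closest matches of the COUP-TF genes were looser. They were *Ccng2* (0.935), *Thtpa* (0.927) and *Vangl2* (0.924) for *Nr2f1*, *Zscan29* (0.959), *Cdkn1b* (0.956) and *Cept1* (0.952) for *Nr2f2*, and *Thap3* (0.887), *Fgd1* (0.886) and *Chrnb1* (0.882) for *Nr2f6*. *Cdkn1b*, the cell cycle inhibitor p27, was between 7.99 and 32.2 FPKM in fibroblasts.

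Genes around the members were compared because reads of overlapping genes on opposite strands cannot be told apart unless strand is used in counting, which the sources used here do not state. GENCODE M21 places 21 genes over the members or within 5000 bases of them, 11 of which overlap a member on the opposite strand, and 13 reached 1 FPKM in a library. *A830082K12Rik*, an antisense transcript that shares 1741 bases with *Nr2f1*, followed it in part. It was at 7.80 and 5.13 FPKM in *Dnmt3a* KO and *Dnmt3b* KO 2i-MEFs, at 2.62 and 2.55 in WT MEFs (DMSO, GSK126), and at 0.691 and 1.32 in MEFs labelled KO. Its log2 ratio in MEFs with DMSO was -1.10, beside -1.37 for *Nr2f1*. In heart, however, it was at 0.767 FPKM in WT and 1.31 in the library labelled KO, opposite to *Nr2f1*.

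Within the span of *Nfix* on the opposite strand lie *Lyl1*, a transcription factor of blood cells, and *G430095P16Rik*. *Lyl1* was at 103 and 97.6 FPKM in WT and KO liver, 13.5 and 15 FPKM in WT heart and heart labelled KO, and at most 2.99 FPKM in fibroblasts, the reverse of *Nfix*. *G430095P16Rik* was higher in *Dnmt3a* KO (9.32 FPKM) than in *Dnmt3b* KO 2i-MEFs (3.35 FPKM, log2 ratio 1.25), where *Nfix* had a log2 ratio of 0.77. *Trmt1*, a tRNA methyltransferase gene that ends 68 bases from the end of *Nfix*, stayed between 42.2 and 83.0 FPKM. *Ocel1*, which overlaps *Nr2f6* by 5239 bases, was between 3.13 and 5.76 FPKM, and *Use1*, a gene of vesicle transport nearby, between 95.3 and 160 FPKM. *B130024G19Rik*, *E130114P18Rik* and *Gm11266*, opposite to *Nr2f2*, *Nfia* and *Nfib*, did not exceed 0.50, 0.848 and 2.3 FPKM, respectively. Around *Nfic*, *Gm16104* was at 0 to 0.390 FPKM in fibroblasts and up to 7.44 FPKM in WT liver, *Smim24* reached 5.82 FPKM in WT heart and *Celf5* 7.40 FPKM in MEFs labelled KO with DMSO, while *Ushbp1*, near *Nr2f6*, reached 3.90 FPKM in heart labelled KO. The other 8 neighbours did not exceed 1.67 FPKM.

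Other nuclear receptors of the same class were counted beside the COUP-TFs. Of 9 relatives, 4 or 5 were expressed, and none of them was 2-fold apart between genotypes or with GSK126. *Rxra* and *Rxrb*, which encode the dimer partners RXR alpha and beta, were between 17.8 and 39.3 FPKM in all libraries. *Hnf4a*, a liver receptor that binds similar repeats, was at 40.4 and 40.6 FPKM in WT and KO liver and at most 0.165 FPKM elsewhere. Of 6 partner genes, the corepressor gene *Ncor1* was expressed in all libraries (56.6 to 84.3 FPKM), and *Zfpm2*, which encodes the cofactor FOG2, was between 5.24 and 10.3 FPKM in fibroblasts, at 6.69 and 5.75 FPKM in heart, and at most 0.791 FPKM in liver. Between genotypes and with GSK126, the 1 partner gene past 2-fold was *Bcl11b*. It was at 0.734 FPKM in the library labelled KO and 2.71 FPKM in WT MEFs with GSK126. This was 1 of 5 expressed partner genes, beside 5.83% of all genes.

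COUP-TFs compete with retinoic acid receptors, and 15 genes of the retinoic acid pathway were therefore counted. In 2i-MEFs none of 12 expressed genes was 2-fold apart. In MEFs with DMSO, 1 of 12 expressed genes was at least 2-fold higher in the library labelled *Dnmt3a* KO and 3 were lower, against the 6.26% given above for all genes, and their median log2 ratio was -0.11 against 0.04 over all genes. The higher gene was *Aldh1a1*, which makes retinoic acid (22.5 against 3.65 FPKM). The lower genes were *Crabp1* and *Crabp2*, which encode retinoic acid carriers (129 against 553 and 35.2 against 85.9 FPKM), and the receptor gene *Rarb* (0.359 against 3.13 FPKM). *Crabp2* and *Rarb* were named after their values had been seen. With GSK126 the counts were also 1 higher and 3 lower of 12, beside 5.83% of all genes. *Aldh1a1* was at 26.6 against 3.56 FPKM and *Crabp1* at 224 against 682 FPKM. The 3 lower genes were not the same, as *Crabp2* (38.5 against 75.1 FPKM) stayed within 2-fold and *Rdh10* passed it. GSK126 against DMSO left none of the pathway 2-fold apart in either genotype, and in heart no gene was 2-fold apart between genotypes. In liver *Crabp2* was (0.585 in KO against 3.55 FPKM in WT), 1 of 10 expressed genes beside 3.68% of all genes. In MEFs with DMSO, fibroblast markers summed to 9291 FPKM in the library labelled KO and 12048 in WT. Epicardial and mesothelial markers summed to 92.6 and 50.2 FPKM. The part of these markers in the result was not tested.

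Genes with known links to the factors were counted likewise. The 12 genes linked to COUP-TFII in vessels and atria were chosen from heart and vessel genes, some of them on the atrial and ventricular marker lists, so that a higher level in heart than in liver follows from the choice. This was so by 2-fold for 11 of them in both genotypes, with *Myl7* (4907 against 9.12 FPKM in WT) at the top. Between genotypes none was 2-fold apart in heart, liver or MEFs with DMSO. In 2i-MEFs *Angpt1*, a vessel growth factor, was higher in *Dnmt3a* KO (5.14 FPKM) than in *Dnmt3b* KO (1.53 FPKM). This was 1 of 8 expressed genes, beside 9.01% of all genes. In MEFs with GSK126 *Myl7* was at 1.82 FPKM in the library labelled KO and listed at 0 in WT. This was 1 of 7 expressed genes, beside 5.83% of all genes. Of 20 genes linked to NFI factors, 14 were expressed in 2i-MEFs, and 1 was 2-fold apart, *Eno3* (9.26 FPKM in *Dnmt3a* KO against 21.4 in *Dnmt3b* KO), a muscle enolase. In MEFs with DMSO it was *Mef2c* (13.4 in the library labelled KO against 6.16 FPKM in WT), a muscle transcription factor, and in liver *Mef2c* (6.70 in KO against 14.9 FPKM in WT) and *Myh7* (0.726 against 2.49 FPKM), the latter named after its values had been seen. These were 1 of 14 expressed genes in 2i-MEFs, 1 of 14 in MEFs with DMSO and 2 of 13 in liver. Of all genes, 9.01%, 6.26% and 3.68% were so. No gene of the list was 2-fold apart between genotypes in MEFs with GSK126 (0 of 13, beside 5.83%) or in heart (0 of 15, beside 4.04%). In that MEF pair, *Mef2c* was at 10.2 FPKM in the library labelled KO and 11.3 FPKM in WT. In liver, *Myh7* is also a cardiomyocyte marker, and the summed cardiomyocyte markers (11.5 in KO against 86.2 FPKM in WT) and skeletal muscle markers (1.86 against 29.8 FPKM) were lower with it, whose part in the result was not tested. Between heart and liver in WT, 13 of 17 expressed genes of this list were at least 2-fold higher in heart and 3 lower. Of all genes, 41.6% were that far apart in either direction. In the KO pair, 12 of 18 were higher and 4 lower, beside 43.7% of all genes. *Myh7* is on the cardiomyocyte marker list and *Col1a1* and *Col1a2* on the fibroblast list, so a higher level in heart follows partly from the choice. With GSK126 against DMSO none of the 20 was 2-fold apart in either genotype.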

How the data were processed

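PolyA RNA was sequenced by the authors as 75-base single reads from stranded libraries, aligned to mm10 and kept at a mapping quality of 20 or more. They deposited 1 FPKM per gene and library, made with Cufflinks 2.2.1 and GENCODE M15 annotation. Counts were not used here, so depth was recovered from the steps of low FPKM (9154200 to 26154000 reads, with 97.9% to 99.1% of low values whole within 0.1 read). Whether strand was used in counting is not given in the sources used here.

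Members were matched by symbol, and the members and gene lists were chosen with earlier results of these data known. Libraries were grouped by their labels, 1 per condition, and 9 comparisons were made without p-values. Ratios were log2(FPKM + 1), which understates the change of low genes, and a gene was tested at 1 FPKM or more in either library and called at 2-fold. Fold changes of FPKM were given 95% exact Clopper-Pearson intervals from reads on the shortest coding transcript in GENCODE M21, for members and for all tested genes matched by symbol. They cover counting error only, and reads without molecular identifiers are not independent molecules.

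Named were all members, the 3 genes most like each by Pearson's r (without Gm and Rik symbols) and annotated genes within 5000 bases. In each list, the gene with the largest ratio, the closest relative or a direct partner was named. Some other genes of the lists were named after their values had been seen. Alternatives were a pseudocount of 0.1, no filter, the highest row per symbol, a 1.5-fold threshold, centring on the median, upper-quartile scaling, and leaving out 2i-MEFs or the libraries that go against their label. The scripts were tested on simulated data and used Python 3.11.15, numpy 2.4.6, pandas 2.3.3, scipy 1.17.1 and matplotlib 3.10.9. Of 26 samples, the 16 without RNA libraries were not used here. The values of 1 gene of the lists are not reported here.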

Additional observations from a re-analysis of the deposited data

Results flagged for a closer look

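In 2 genes the *Dnmt3a* KO library, or that labelled so, lay on opposite sides of WT in different settings, each time beyond counting error. Of these settings, the *Dnmt3a* level was below WT only in liver. The differences between settings were not tested. The log2 ratio of *Nfix* was -0.10 in MEFs with DMSO and -0.45 in liver, but 0.14 in MEFs with GSK126. The log2 ratio of *Nfia* was -0.47 in MEFs with DMSO and 0.57 in heart. All are ratios of 1 library to 1 library.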

How the results depend on the processing

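A threshold of 1.5-fold in place of 2-fold raised the count of members called from 0 to 2 in 2i-MEFs, from 0 to 1 with GSK126 in WT MEFs, from 0 to 2 with GSK126 in MEFs labelled *Dnmt3a* KO and from 0 to 2 in liver. Without the MEFs labelled *Dnmt3a* KO, chosen after seeing the data, the count of members lower in 2i-MEFs than in MEFs went from 0 to 1 (*Nfib*). The other 66 alternative counts stayed within 1.5 times their value. Of 252 member ratios under alternatives, 2 changed sign, both of *Nfib* in liver, which was at -0.03 and came to 0.05 when centred on the median gene and to 0.02 under upper-quartile scaling. The ratio of *Nr2f6* between WT heart and liver moved from 0.53 to 0.69 under upper-quartile scaling. Centring shifted ratios by at most 0.13 (WT heart against liver, where the median gene was at -0.13), and a pseudocount of 0.1 by at most 0.60, since low levels are damped less. Centring the counting intervals on the median gene, also chosen after seeing the data, took *Nr2f6* in liver and *Nfic* with GSK126 in MEFs labelled KO out of those beyond counting error and added *Nfib* in MEFs with DMSO. Within a comparison each group has 1 library, so neither a block nor leaving out a replicate left an estimate. Paired fits over both genotypes, with the embryo number as a block for heart against liver or the genotype as a block for GSK126 (2 pairs each), could have been made but were not run. The liver values of *Nr2f1*, *Nfia* and *Nfib* rest on 18 to 30 reads if the shortest coding transcript is assumed, and on 103 to 538 with the longest. The depth behind them is thus not known closely.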
